A study of Rattus norvegicus with 15 samples.

Results

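The genes of the acrosome, of the ADAM family and of fertilization were followed in the testes of irradiated and control rats. Members were the probe sets whose single gene symbol in the platform's probe table names an ADAM, Spaca, Izumo, Zpbp, Crisp or Prss gene or is Acr, Acrbp, Acrv1, Spam1, Calr3, Clgn, Pdilt, Ly6k, Hyal5, Sun5 or Dpy19l2. The rule used no measured value, but earlier results of these data were known when it was set. The members came to 72 probe sets of 55 genes, out of 31099 probe sets in all, of which 20832 carry 1 gene symbol (14218 genes). For Clgn, Pdilt, Ly6k, Hyal5, Sun5 and Dpy19l2 no probe set was matched.

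The series has 10 control and 5 irradiated testis samples of LBNF1 rats, an F1 laboratory hybrid, aged 25 to 27 weeks, each measured on 1 Affymetrix array. A dose of 6 Gy was directed at the lower abdomen, and no allele, transgene or further agent is named for either group. The labels describe the controls as testes before irradiation, repeat the irradiation text for all samples, and give no interval between exposure and collection. They call the samples biological replicates without saying that each was a separate rat, and all p-values reflect only how much these samples varied, some of which may be technical.

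The acrosome is a vesicle that caps the sperm nucleus. Round spermatids build it from the Golgi apparatus and fill it with proteases, hyaluronidase and zona-binding proteins that act when sperm meet the egg. ADAM proteins are membrane-anchored proteins with a metalloprotease and a disintegrin domain. One branch of the family is made by germ cells and sits on the sperm surface, whereas ADAM10, ADAM17 and their relatives cut cell-surface proteins in many tissues. The Prss genes encode trypsin-like serine proteases, again with a branch made in the testis and others made in pancreas, skin or glands.

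Promoter sequences are shown first for members that stand for the 2 directions seen below. RefSeq windows of the assembly GRCr8, from 250 bases before to 50 bases after the start site, were matched for 37 of the 55 member genes. Acr, Adam1a and Calr3 are germ cell members that fell, and their windows hold the letters TGACG, the core of the cyclic AMP response element through which CREM acts in spermatids. Capitals mark TGACG, or CGTCA where it lies on the opposite strand. Adam15 is a broadly expressed member that rose, and there the capitals mark GGGCGG, the GC box. The windows are chr7:122517684-122517983 (plus strand) for Acr, chr12:40677871-40678170 (plus strand) for Adam1a, chr16:17429855-17430154 (plus strand) for Calr3 and chr2:177062800-177063099 (minus strand) for Adam15, each written 5′ to 3′ along its gene.
Acr: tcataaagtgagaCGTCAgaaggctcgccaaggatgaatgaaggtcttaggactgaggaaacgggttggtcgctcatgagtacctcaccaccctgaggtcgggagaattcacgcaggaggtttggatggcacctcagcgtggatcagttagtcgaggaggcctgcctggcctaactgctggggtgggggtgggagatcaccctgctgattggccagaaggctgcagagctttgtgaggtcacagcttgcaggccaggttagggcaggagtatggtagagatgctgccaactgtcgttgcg
Adam1a: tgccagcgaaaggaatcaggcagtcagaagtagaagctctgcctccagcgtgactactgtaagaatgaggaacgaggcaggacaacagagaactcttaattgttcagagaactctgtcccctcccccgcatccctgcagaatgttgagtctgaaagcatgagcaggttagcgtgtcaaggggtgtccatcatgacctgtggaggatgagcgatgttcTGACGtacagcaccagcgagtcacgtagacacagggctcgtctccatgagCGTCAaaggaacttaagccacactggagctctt
Calr3: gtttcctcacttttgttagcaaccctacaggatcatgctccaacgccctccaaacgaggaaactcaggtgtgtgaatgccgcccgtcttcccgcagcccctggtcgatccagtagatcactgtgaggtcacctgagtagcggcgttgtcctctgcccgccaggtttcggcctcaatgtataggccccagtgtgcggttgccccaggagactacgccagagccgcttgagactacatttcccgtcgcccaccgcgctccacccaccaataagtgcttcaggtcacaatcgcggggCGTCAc
Adam15: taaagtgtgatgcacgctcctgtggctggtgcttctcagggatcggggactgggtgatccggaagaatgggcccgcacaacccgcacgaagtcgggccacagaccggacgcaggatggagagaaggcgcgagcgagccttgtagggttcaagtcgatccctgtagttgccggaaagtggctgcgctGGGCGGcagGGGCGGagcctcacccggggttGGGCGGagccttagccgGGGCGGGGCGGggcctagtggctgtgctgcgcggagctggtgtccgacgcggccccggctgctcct

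Counted from the start site, TGACG begins at position -237 of Acr on the opposite strand, at -33 of Adam1a on the gene's strand and at 18 on the opposite strand, and at 45 of Calr3 on the opposite strand. GGGCGG begins at -64, -55, -33, -16 and -11 of Adam15, all on the gene's strand, and the last 2 matches overlap by 1 base. On either strand TGACG was present in 8 of the 21 members that fell and have a window (38.1%), in 1 of 3 that rose and in 0 of 6 that were not called, against 23% of 27457 genes. The 8 were Acr, Acrbp, Adam1a, Calr3, Izumo4, Prss40, Prss45 and Prss56. A motif counted as present if any window of a gene held it. Prss56 has 7 windows, Izumo4 and Prss47 have 3 each and Acrbp has 2. The full palindrome TGACGTCA was found among members in Prss56 only (2% of all genes), and TATAAA in Spam1 and in the untested trypsin genes Prss1, Prss2 and Prss3b (15.3%). GGGCGG was in 9 of the 21 that fell and in Adam10, Adam15 and Adam19, the 3 risers with a window (36% of all genes). It was also in Adam17 and Adam22, 2 of the 6 that were not called, and in the untested Adam8 and Prss30. These matches describe the letters in the windows. CpG pairs were counted in the first window of each gene. They numbered from 0 to 29 (median 10) in the 21 members that fell and from 15 to 31 in the 3 that rose, where the median of all genes was 7. In the 6 that were not called they numbered from 0 to 30 (median 5.5), with Adam17 at 25 and Adam22 at 30.

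Signals are log2 values with an unknown zero point, and a change is irradiated minus control. A gene was tested if its probe set reached the array's median signal in at least 5 of the 15 arrays, and 42 of the 55 member genes were. Array medians lay between -1.61 and -1.37 in control and between -1.38 and -1.26 in irradiated arrays. As a sign of RNA integrity, actin signal at the 3′ end minus that at the 5′ end ranged from 0.65 to 1.89 in control and from 0.90 to 1.16 in irradiated arrays, with the 3 highest in control replicates 6, 7 and 8. Leaving those 3 out gave again 28 lower and 7 higher members. Where arrays were centred on Sertoli cell markers, the mean of the 11 tested markers was subtracted from each array. All 11 rose with values as deposited, so the centring lowered the change of every gene by the same amount. A gene that rose by less than that amount had to turn sign, which is no separate evidence on that gene. The same holds for a gene that changed little and then came out lower. With this centring 9067 of all 10841 tested genes were called lower.

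Of the 42 tested member genes, 28 fell, 7 rose and 7 did not pass an adjusted p of 0.05 (limma). Across all 10841 tested genes, 37.9% were lower and 47.6% higher by the same rule, and 85.5% passed in either direction, as 35 of the 42 members did. The median change of the tested members was -3.03 (-2.06 with every value at no less than its array's median), beside 0.20 (0.18) for all tested genes. At least 8-fold lower on that floored scale were 18 members, where 4.81% of all tested genes were. Every irradiated array lay below every control array in 26 members (29.0% of all tested genes) and above in 5 (40.5%). Of the 28 that fell, 23 were below the array median in all 5 irradiated arrays (12.1% of all tested genes). These 23 passed the filter through control arrays alone, and Adam23 and Prss23 through irradiated arrays alone, so that they had to differ and the counts only describe the members.

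**Figure D1:**
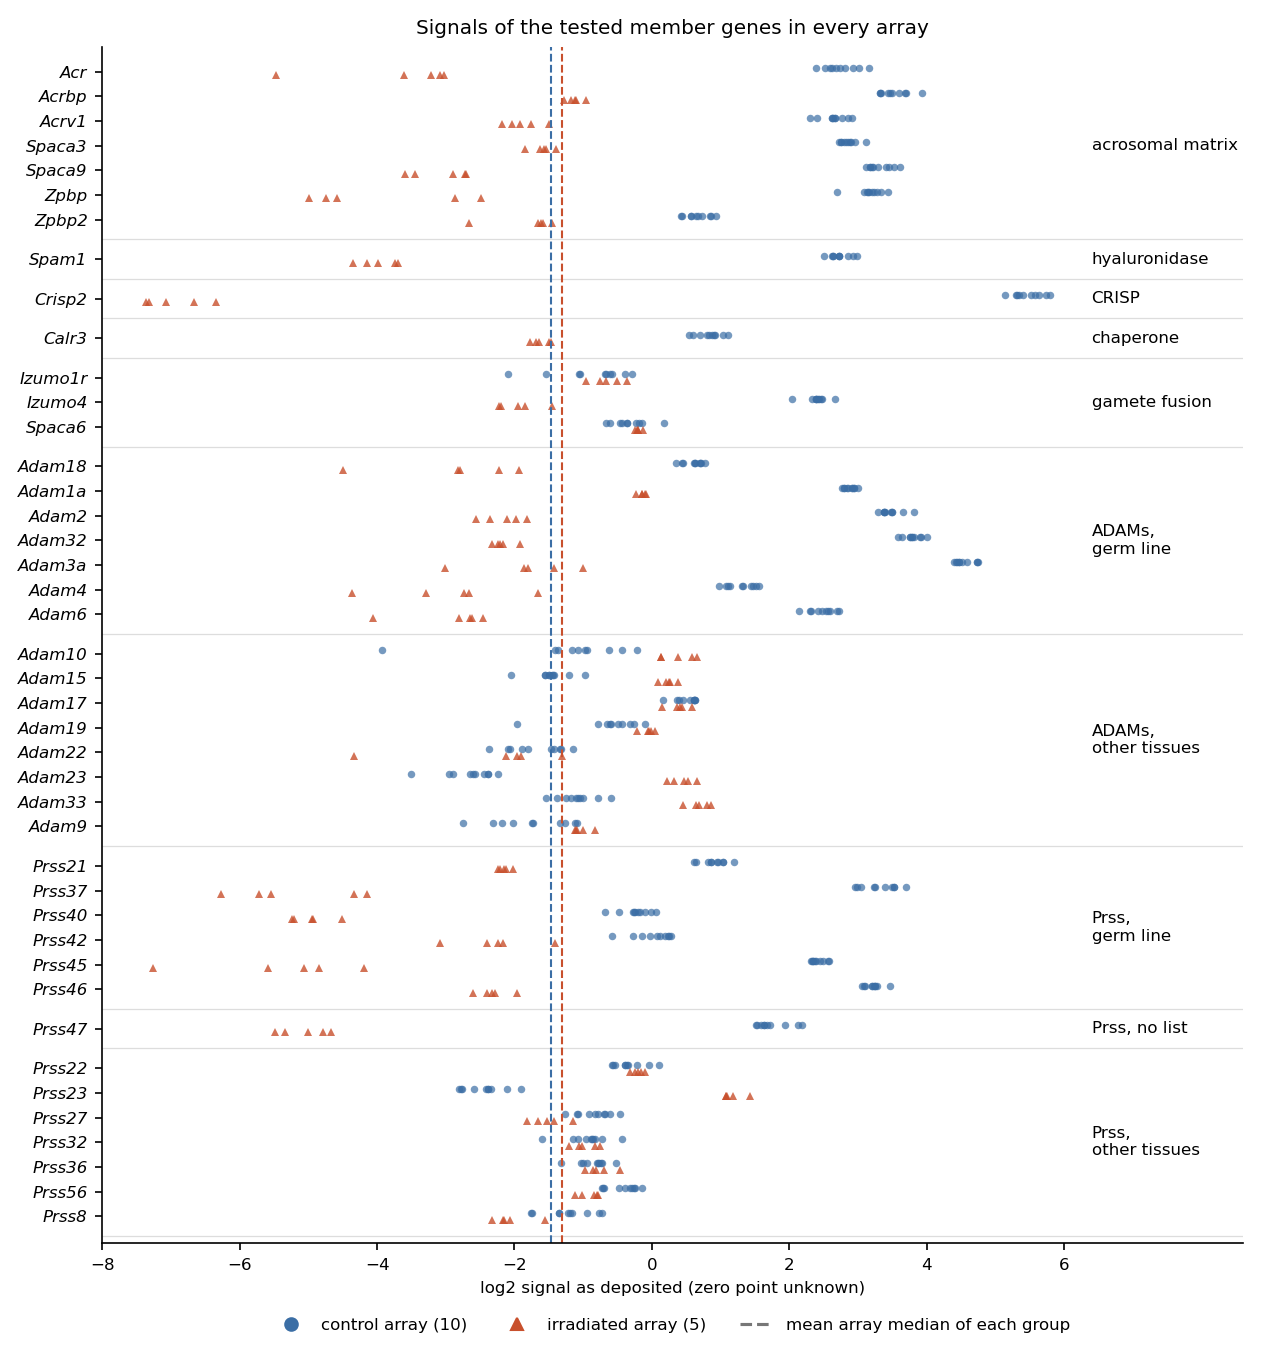
Log2 signal (horizontal axis) of each of the 42 tested member genes in the 10 control arrays (circles) and the 5 irradiated arrays (triangles), grouped by role, with the mean array median of each group as a dashed line. Among acrosomal matrix, germ-line ADAM and germ-line Prss genes the circles lie to the right of the triangles without overlap, as in 26 members in all. In 5 members, all among ADAM and Prss genes of other tissues, every triangle lies to the right; with arrays centred on Sertoli cell markers, Adam10, Adam15 and Adam33 among these change sign.

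Proteins of the acrosomal matrix and zona binding fell in 7 of 7 tested genes, where 37.9% of all tested genes fell. Acrbp, which binds the acrosin precursor and packs it into the granule, was between 3.32 and 3.93 in the 10 control arrays (median 3.48) and at -1.27, -1.17, -1.12, -1.11 and -0.96 in irradiated replicates 1 to 5. Its irradiated values sat close to the array median, with 4 of 5 at or above it, and were all far below the lowest control. The change was -4.66 ± 0.10 (SE, adjusted p = 3.57e-16), 25.2-fold. Spaca9, named for the sperm acrosome, was between 3.12 and 3.62 in the 10 control arrays (median 3.25) and at -3.59, -2.89, -2.72, -2.70 and -3.45 in irradiated replicates 1 to 5. All 5 irradiated arrays were below their medians, which makes it at least 24.7-fold lower (adjusted p = 4.69e-16).

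Acr, the acrosomal protease acrosin, was at least 16.7-fold lower. Acrv1, the vesicle antigen SP-10, was at least 15.5-fold lower, and Spaca3, a lysozyme-like acrosomal protein, at least 18-fold. The zona pellucida binding protein genes Zpbp and Zpbp2 were at least 22.3-fold and 3.94-fold lower. Both probe sets of Zpbp2 gave nearly the same bound, 3.94 and 4.03. All 7 genes had adjusted p-values of 3.40e-10 or smaller, and in each the groups did not overlap.

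Spam1 encodes PH-20, the sperm hyaluronidase that opens the cumulus around the egg. Its signal was between 2.51 and 2.99 in the 10 control arrays (median 2.73) and at -4.35, -3.70, -3.98, -4.15 and -3.73 in irradiated replicates 1 to 5. It was at least 16.5-fold lower (adjusted p = 1.53e-17), and no irradiated array came near a control.

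Crisp2, a cysteine-rich secretory protein of the acrosome and sperm tail, was between 5.15 and 5.79 in the 10 control arrays (median 5.46) and at -6.35, -6.67, -7.36, -7.08 and -7.33 in irradiated replicates 1 to 5. The groups were farther apart in measured means than in any other member. In every irradiated array the probe set lay far below the median, where the size of a difference is uncertain. Crisp2 was at least 110-fold lower, and its adjusted p of 8.74e-19 comes from the values as measured. Crisp3, a relative that lies 2 protein-coding genes away on chromosome 9, was below the array median in all 15 arrays and was not tested.

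Calr3, or calsperin, is a calreticulin-like chaperone of germ cells that helps sperm surface proteins, ADAM3 among them, to fold. It was between 0.54 and 1.11 in the 10 control arrays (median 0.85) and at -1.50, -1.46, -1.68, -1.78 and -1.64 in irradiated replicates 1 to 5. The bound was 4.42-fold lower (adjusted p = 5.79e-13) and every irradiated array lay below its median, with no overlap between the groups.

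Of 3 tested genes named for gamete fusion, 1 fell and 2 did not pass with values as deposited (37.9% of all tested genes fell). The uniform shift of Sertoli centring made all 3 lower (Izumo4 -6.52, Spaca6 -2.05 and Izumo1r -1.94), as it did most tested genes. Izumo4, an Izumo-domain sperm protein, was between 2.03 and 2.66 in the 10 control arrays (median 2.40) and at -1.95, -2.23, -1.85, -2.19 and -1.45 in irradiated replicates 1 to 5. It was at least 13.1-fold lower (adjusted p = 5.22e-15), and its other probe sets were at least 5.77-fold and 10.9-fold lower. Spaca6, a sperm membrane protein required for fusion with the egg, was between -0.67 and 0.18 in the 10 control arrays (median -0.36) and at -0.12, -0.22, -0.20, -0.20 and -0.24 in irradiated replicates 1 to 5. Its groups overlapped and the change was 0.13 ± 0.12 (SE, adjusted p = 0.301). Another probe set of Spaca6 was below the median in all control arrays and in 2 of 5 irradiated arrays and was not tested. It was between -5.53 and -2.24 in control arrays and between -1.43 and -1.04 in irradiated arrays, so every irradiated array lay above every control.

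Izumo1r encodes Juno, the egg-surface receptor of Izumo1, and is not a sperm gene. It was between -2.09 and -0.28 in the 10 control arrays (median -0.67) and at -0.95, -0.50, -0.36, -0.68 and -0.75 in irradiated replicates 1 to 5. The irradiated values fell inside the control range, with a change of 0.25 ± 0.24 (SE, adjusted p = 0.355) that turned to -1.94 with Sertoli centring.

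The ADAM genes of the germ line fell in 7 of 7 tested members (37.9% of all tested genes fell), with no overlap between groups in any. Adam3a, or cyritestin, which sperm need to pass into the oviduct and bind the zona, was between 4.40 and 4.74 in the 10 control arrays (median 4.50) and at -3.01, -1.86, -1.01, -1.81 and -1.42 in irradiated replicates 1 to 5. Irradiated replicate 3 was the only irradiated array above its median. With values floored at the median the change was -5.81, so the measured -6.37 ± 0.22 (SE, adjusted p = 7.48e-14) reads as at most -5.81. Adam32, another sperm ADAM, was between 3.59 and 4.01 in the 10 control arrays (median 3.79) and at -2.21, -2.24, -1.92, -2.32 and -2.17 in irradiated replicates 1 to 5, at least 34.5-fold lower (adjusted p = 4.30e-18). Its irradiated arrays differed among themselves by less than 1 log2 unit and all lay below the median.

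Adam1a and Adam2 encode the alpha and beta subunits of fertilin, the sperm surface heterodimer. Adam2 was between 3.29 and 3.81 in the 10 control arrays (median 3.44) and at -1.82, -2.56, -2.36, -1.97 and -2.11 in irradiated replicates 1 to 5, at least 27.6-fold lower (adjusted p = 1.44e-16). Adam1a was between 2.77 and 2.99 in the 10 control arrays (median 2.88) and at -0.14, -0.10, -0.14, -0.23 and -0.09 in irradiated replicates 1 to 5. Unlike Adam2, it stayed above the array median in all 5 irradiated arrays, and its change of -3.02 ± 0.07 (SE, adjusted p = 2.76e-16), 8.11-fold, was measured on both sides. With values floored at the array median, Adam1a minus Adam2 was -0.60 ± 0.19 (SD, n = 10) in control arrays. After irradiation it was at least 1.17, since Adam2 stood at the floor in all 5 arrays. This pair and the 3 below were chosen after their values were seen and are given as descriptions, with no test.

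Adam6, which joins a sperm complex with ADAM2 and ADAM3, was at least 13.8-fold lower. Adam4 and Adam18, further sperm ADAMs, were at least 6.08-fold and 3.76-fold lower. Their adjusted p-values were 1.85e-13, 5.61e-10 and 5.84e-09.

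Among ADAM genes of other tissues, 6 of 8 tested members rose and none fell with the values as deposited, where 47.6% of all tested genes rose and 37.9% fell. Under centring on Sertoli cell markers only Adam23 of these 6 was still higher, by values as measured. Adam9, Adam10, Adam15, Adam19 and Adam33 turned to -1.46, -0.59, -0.49, -1.62 and -0.40. Adam23, a catalytically inactive ADAM that binds LGI proteins and is best known from brain, was between -3.51 and -2.24 in the 10 control arrays (median -2.59) and at 0.65, 0.22, 0.33, 0.52 and 0.47 in irradiated replicates 1 to 5. Every control array lay below its median and every irradiated array above, which makes Adam23 at least 3.74-fold higher (adjusted p = 2.77e-11). Its other probe sets did not pass the filter.

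Adam33, known from smooth muscle and mesenchymal cells, was between -1.55 and -0.59 in the 10 control arrays (median -1.09) and at 0.64, 0.80, 0.86, 0.46 and 0.69 in irradiated replicates 1 to 5. The groups did not overlap, with a change of 1.78 ± 0.13 (SE, adjusted p = 1.82e-09). Adam15, an ADAM with an integrin-binding motif, was between -2.05 and -0.97 in the 10 control arrays (median -1.47) and at 0.38, 0.25, 0.09, 0.27 and 0.20 in irradiated replicates 1 to 5. Control arrays lay around their medians, and with the floor the change was at least 1.62 (adjusted p = 2.27e-09).

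Adam10, the protease that starts Notch cleavage, was between -3.93 and -0.22 in the 10 control arrays (median -1.02) and at 0.13, 0.39, 0.66, 0.13 and 0.58 in irradiated replicates 1 to 5. The lowest value, -3.93, belonged to control replicate 6, and all irradiated arrays lay above all controls. The change was 1.59 ± 0.43 (SE, adjusted p = 0.00274) and 1.29 (adjusted p = 1.16e-05) without control replicate 6. A second probe set of Adam10 rose by 0.85 (adjusted p = 0.000287), again without overlap. Adam17, which releases tumour necrosis factor from the membrane, was between 0.16 and 0.63 in the 10 control arrays (median 0.58) and at 0.59, 0.44, 0.37, 0.15 and 0.41 in irradiated replicates 1 to 5. Its groups overlapped and the change was -0.11 ± 0.10 (SE, adjusted p = 0.29). It was lower by 0.47 after quantile normalization (adjusted p = 6.48e-05) and by 0.27 after centring arrays on their medians (adjusted p = 0.012). The uniform shift of Sertoli centring took the change of Adam17 to -2.30. With values floored at the array median, Adam17 minus Adam10 was 1.47 ± 0.35 in control arrays (SD, n = 10) and 0.01 ± 0.28 after irradiation (SD, n = 5).

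Adam9, a broadly made ADAM, was between -2.75 and -1.09 in the 10 control arrays (median -1.74) and at -0.83, -1.01, -1.09, -1.11 and -1.10 in irradiated replicates 1 to 5. Controls spread over more than 1 log2 unit around the median while irradiated arrays clustered just above it, and the ranges overlapped narrowly. The measured change was 0.73 ± 0.24 (SE, adjusted p = 0.00995), and with the floor it was at least 0.34. Adam19, or meltrin beta, was between -1.96 and -0.10 in the 10 control arrays (median -0.54) and at -0.04, 0.04, -0.22, -0.06 and -0.01 in irradiated replicates 1 to 5. It overlapped between groups through its highest controls. The change was 0.56 ± 0.22 (SE, adjusted p = 0.0264), and the call was lost after quantile normalization (0.22, adjusted p = 0.396), after centring on array medians (0.41, adjusted p = 0.106) and without irradiated replicate 2 (0.54, adjusted p = 0.0545).

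Adam22, a relative of Adam23, was between -2.38 and -1.14 in the 10 control arrays (median -1.64) and at -2.12, -1.31, -1.90, -4.33 and -1.97 in irradiated replicates 1 to 5. Both group means lay below the array median, so no size of change is given (adjusted p = 0.117). Without irradiated replicate 2 it passed as lower (adjusted p = 0.0364), and likewise after centring on array medians (adjusted p = 0.049). The uniform shift of Sertoli centring also made it lower. With values floored at the array median the sign turned and the call was not made (0.11, adjusted p = 0.181).

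A run of ADAM genes on chromosome 16 holds Adam9, Adam32, Adam5, Adam3a and Adam18 as successive protein-coding genes in GRCr8, and no member probe set was matched to Adam5. Adam9 rose while its neighbour Adam32 and, farther along, Adam3a and Adam18 fell. On floored values Adam9 minus Adam32 was -5.17 ± 0.27 (SD, n = 10) in control arrays and at least 0.28 after irradiation, where Adam32 stood at the floor. The sign of Adam9 alone turned when arrays were centred on Sertoli cell markers.

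**Figure D2:**
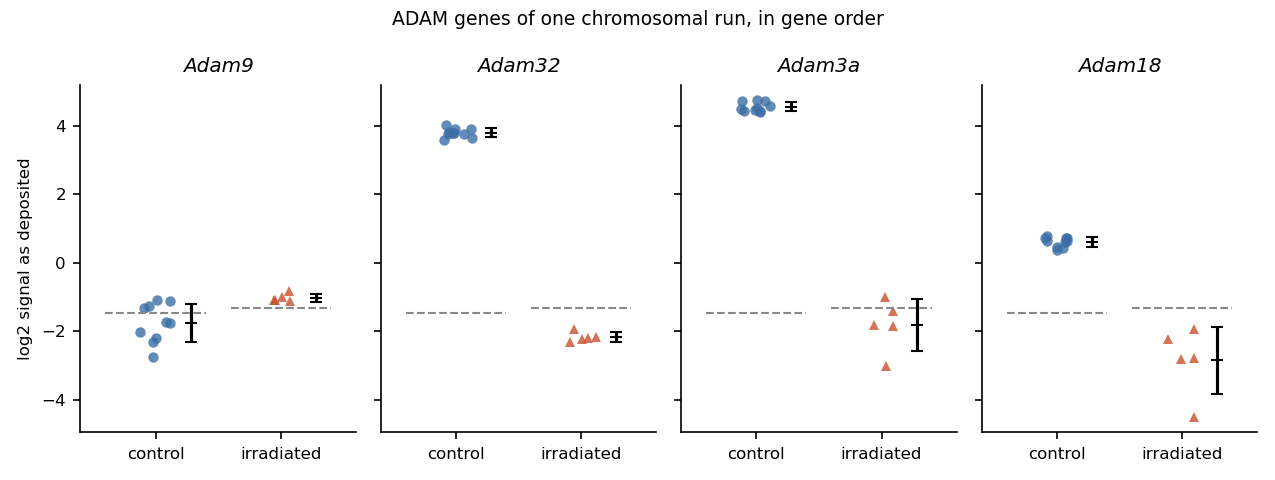
Log2 signal (vertical axis) of 4 neighbouring ADAM genes in control (circles) and irradiated (triangles) arrays, with mean and SD as black bars and the mean array median of the group as a dashed line. Adam9 lies near the median in both groups and somewhat higher in irradiated arrays (its sign turns to -1.46 when arrays are centred on Sertoli markers), while Adam32, Adam3a and Adam18 drop from above the median to mostly below it.

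The Prss proteases of the germ line fell in 6 of 6 tested members (37.9% of all tested genes fell). Prss55, also in this list, was below the array median in all 15 arrays and was not tested. Prss37, a protease-like sperm protein without a working catalytic site that ADAM3 maturation needs, was between 2.95 and 3.70 in the 10 control arrays (median 3.32) and at -4.34, -4.14, -5.72, -5.55 and -6.28 in irradiated replicates 1 to 5. It was at least 24.6-fold lower (adjusted p = 3.99e-14). That value comes from a probe set with the suffix s_at, which can match several transcripts, and the gene's other 2 probe sets did not pass the filter. Prss46, a testis serine protease, was between 3.06 and 3.46 in the 10 control arrays (median 3.22) and at -2.33, -2.40, -1.97, -2.29 and -2.60 in irradiated replicates 1 to 5, at least 23-fold lower (adjusted p = 2.35e-17). In both genes every irradiated array lay below its median.

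Prss45, the direct neighbour of Prss46 on chromosome 8, was at least 13.3-fold lower, and Prss42, a testis protease separated from Prss45 by Prss44 and Prss44-ps1, at least 2.5-fold. Prss21, or testisin, a membrane-anchored sperm protease, was at least 4.62-fold lower. Prss40, an acrosomal protease, was at least 2.1-fold lower, and Prss47, which no role list holds, was between 1.52 and 2.19 in the 10 control arrays (median 1.65) and at -5.49, -4.79, -5.34, -5.01 and -4.68 in irradiated replicates 1 to 5, at least 8.38-fold lower. The largest adjusted p among these 5 genes was 2.32e-08.

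Of 7 tested Prss proteases of other tissues, 3 fell, 1 rose and 3 did not pass, where 37.9% of all tested genes fell and 47.6% rose. Prss23, a secreted protease of ovary and mesenchymal cells, was between -2.80 and -1.90 in the 10 control arrays (median -2.40) and at 1.42, 1.18, 1.10, 1.08 and 1.08 in irradiated replicates 1 to 5. It was dim in every control and above the median in every irradiated array, at least 6.23-fold higher (adjusted p = 3.12e-13), and was still higher by 1.43 after centring on Sertoli cell markers. Together with Adam23 it was 1 of 2 risers that kept their direction and call under every scaling tried, by values as measured. For Adam23 this rests on control values below the median. With the floor Adam23 rose by 1.90, less than the shift of Sertoli centring.

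Prss56, a protease known from the eye, was between -0.73 and -0.14 in the 10 control arrays (median -0.36) and at -0.79, -1.02, -0.80, -1.12 and -0.85 in irradiated replicates 1 to 5. Its change was small, -0.49 ± 0.11 (SE, adjusted p = 7.73e-04), although the groups did not overlap. Prss27, a membrane-anchored protease of squamous epithelia, had a change of -0.68 ± 0.13 (SE, adjusted p = 2.03e-04), or at most -0.44 with the floor. Prss8, or prostasin, an activator of epithelial sodium channels, had a measured change of -0.83 (adjusted p = 3.45e-04). All 5 irradiated arrays were below their medians, and only 8 of 10 control arrays reached theirs, so no bound is given. With values floored at the array median Prss8 lost its call (adjusted p = 0.213).

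Prss22, an airway protease, was between -0.58 and 0.10 in the 10 control arrays (median -0.38) and at -0.11, -0.16, -0.20, -0.32 and -0.25 in irradiated replicates 1 to 5, with a change of 0.13 ± 0.11 (SE, adjusted p = 0.296). Prss32 was between -1.60 and -0.44 in the 10 control arrays (median -0.88) and at -1.07, -1.21, -0.76, -1.01 and -0.83 in irradiated replicates 1 to 5, with a change of -0.04 ± 0.15 (SE, adjusted p = 0.817). Prss36, a protease with several catalytic domains, was between -1.32 and -0.52 in the 10 control arrays (median -0.80) and at -0.70, -0.47, -0.81, -0.98 and -0.85 in irradiated replicates 1 to 5, with a change of 0.10 ± 0.12 (SE, adjusted p = 0.42). In these 3 genes the irradiated values lay within or close to the control range. After centring on Sertoli cell markers Prss22, Prss32 and Prss36 were lower by 2.06, 2.22 and 2.08. Prss32 and Prss21 are direct neighbours on chromosome 10, and on floored values Prss32 minus Prss21 was -1.82 ± 0.25 in control arrays (SD, n = 10) and at least 0.33 after irradiation, where Prss21 stood at the floor.

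**Figure D3:**
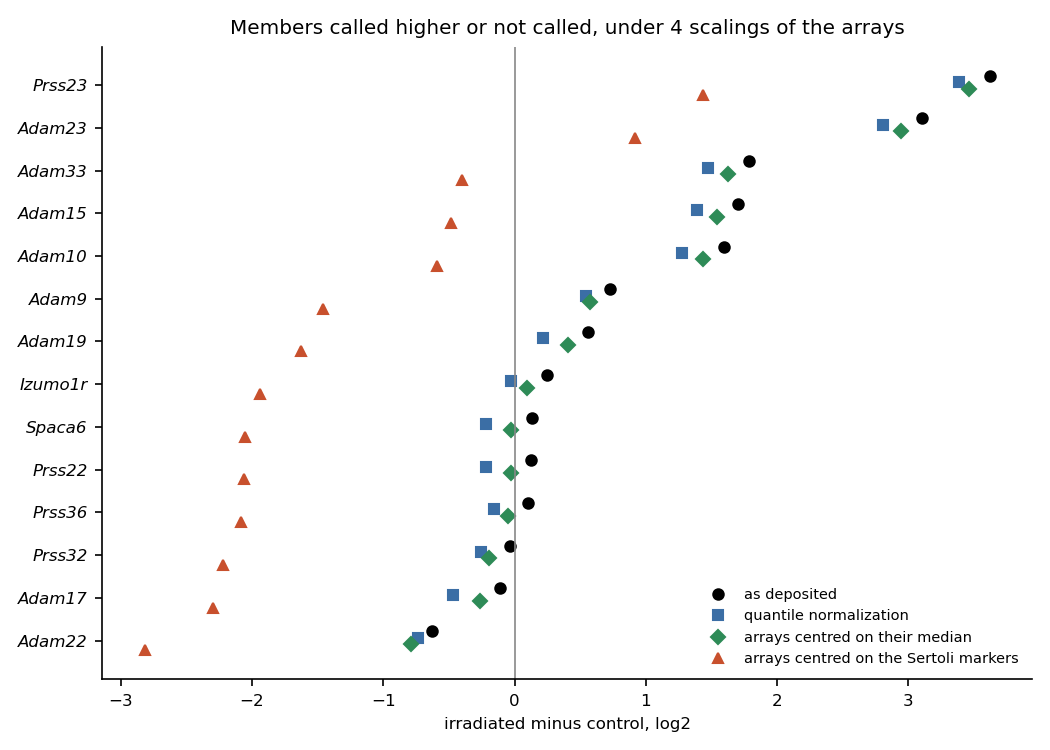
Change in log2 units (horizontal axis, irradiated minus control) of the 14 tested members called higher or not called, with values as deposited, after quantile normalization, and with arrays centred on their median or on Sertoli cell markers. Prss23 and Adam23 stay to the right of 0 under all 4 scalings, Adam23 through control values below the array median. Adam33, Adam15, Adam10, Adam9 and Adam19 move to the left of 0 with Sertoli centring.

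The 13 member genes that were not tested were Adam7, Adam8, Adam11, Crisp3, Prss1, Prss2, Prss3, Prss3b, Prss3bl1, Prss30, Prss35, Prss48 and Prss55. Among their 16 probe sets, 12 were below the array median in all 15 arrays. Adam7, an ADAM of the epididymis, and the trypsin genes Prss1, Prss2 and Prss3 of the pancreas are in this group, and so is the germ-line protease Prss55. Of the 3 epididymis markers on the array, Cst11, Defb1 and Adam7, none was tested and all were below the median in every irradiated array. Of 7 pancreas markers 6 were below it in all 15 arrays.

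The fallen members fell along with markers of spermatocytes and spermatids, whereas spermatogonia markers, given below, went in both directions. All 5 tested spermatocyte, 4 round spermatid and 8 elongating spermatid markers fell, where 37.9% of all tested genes did. Summed linear signals of the markers on the array went from 67.7 to 86.7 units in control and 0.858 to 1.17 units in irradiated arrays for 6 spermatocyte markers, and from 29.2 to 37.0 and 0.336 to 0.599 units for 4 round spermatid markers, of which Acrv1 is also a member. For 8 elongating spermatid markers they went from 293 to 454 units in control and 0.7 to 3.52 units in irradiated arrays. Below the median in every irradiated array were Sycp1, Sycp3, Spo11, Ccna1 and Ldhc, all 4 round spermatid markers, and Prm2, Tnp1, Tnp2 and Akap4. In whole testis, fewer cells of a type and less RNA per cell cannot be told apart.

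The risers moved with somatic markers. With values as deposited, all 11 tested Sertoli, 7 Leydig, 5 peritubular, 7 macrophage and 4 endothelial markers rose, where 47.6% of all tested genes did. Summed signals went from between 27.4 and 36.2 to between 120 and 166 units for 13 Sertoli markers on the array, among which Amh and Rhox5 were below the median in every irradiated array. Leydig markers (7) went from between 6.03 and 8.93 to between 71.8 and 91.1 units, macrophage markers (7) from between 2.24 and 3.15 to between 16.4 and 18.4, peritubular markers (5) from between 5.36 and 7.52 to between 14.4 and 20.7, and endothelial markers (4) from between 0.886 and 1.35 to between 2.67 and 3.07. The part of any of these cell types in the rise of ADAM genes and Prss23 was not tested. The list of 5 spermatogonia markers, 2 higher (Id4 and Kit) and 1 lower (Gfra1), went from between 5.24 and 6.68 to between 6.43 and 9.23 units.

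Other genes of acrosome formation and fertilization, from a list of 50 that holds no member, had 19 tested genes, of which 15 fell, 2 rose and 2 did not pass, and 9 were at least 8-fold lower. Of all tested genes 37.9% fell, 47.6% rose and 4.81% were at least 8-fold lower. The median change was -3.77. The sperm sodium pump subunit Atp1a4 was at least 32.7-fold lower, Capza3, an actin-capping protein of the sperm head, at least 42.6-fold, Cabs1, a calcium-binding protein of spermatids, at least 68.1-fold and Spata46 at least 10.1-fold lower, with adjusted p-values of 1.89e-13 or smaller. These 4 had the largest measured changes, but by the bounds Hspa2, a heat-shock protein of male germ cells (at least 55.6-fold), Actl7b (at least 17.0-fold) and Tex101 (at least 11.1-fold) exceeded Spata46, as did Cst8, 13.9-fold lower. The 2 that rose with values as deposited were Tpst2, a protein-tyrosine sulfotransferase (1.81, adjusted p = 2.43e-11), and Mfge8, a secreted protein that bridges cells (1.22, adjusted p = 1.88e-10), and both turned with arrays centred on Sertoli markers, to -0.38 and -0.97.

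A list drawn up for regulators of ADAM10 and ADAM17 holds 18 tetraspanins, metalloprotease inhibitors, iRhoms and processing proteases. It takes in Timp1, Timp2, Timp3 and Timp4 as a family, and the action of each listed gene on ADAM10 or ADAM17 was not tested. Of its 14 tested genes 11 rose and 1 fell, where 47.6% of all tested genes rose and 37.9% fell. Only Timp1, Timp2, Timp3 and Rhbdf2 were higher with arrays centred on Sertoli markers (2.99, 0.33, 0.36 and 1.94). Rhbdf2 was so only through measured control values, all below the array median. With the floor its rise was smaller than the shift of that centring. Timp1, an inhibitor of metalloproteases, rose by at least 4.74 on the log2 scale, and Timp3 and Timp2 of the same family by 2.55 and 2.52. Rhbdf2, an iRhom that carries ADAM17 to the surface, was at least 1.90-fold higher. Their adjusted p-values were 1.21e-10 or smaller. These 4 had the largest measured changes, but with the floor Rhbdf2 (0.93) came after Tspan5 (2.00), Furin (1.68), Dlg1 (1.63), Frmd8 (1.45), Tspan17 (1.41) and Reck (1.07), whose signs all had to turn with the uniform shift of Sertoli centring. Tspan33, a tetraspanin partner of ADAM10, was the gene that fell, by 0.78 in measured means and by at least 0.29 with the floor, and its call was lost with the probe set nearest to no change (-0.67, adjusted p = 0.0973).

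**Figure D4:**
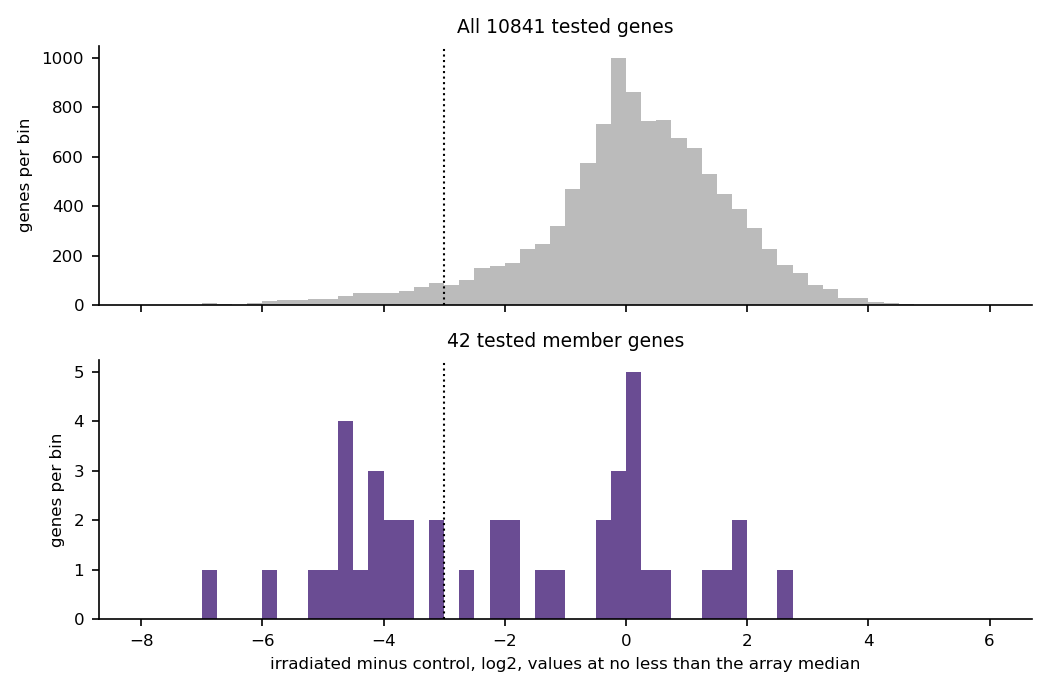
Histograms of the change in log2 units (irradiated minus control, values at no less than the array median) for all 10841 tested genes and for the 42 tested members, with a dotted line at -3, the 8-fold limit. Beyond -3 lie 18 members. Adam4, Prss21, Calr3, Zpbp2, Adam18, Prss42 and Prss40 lie between -2.60 and -1.07, and the others around or above 0, with Adam10, Adam15, Adam33, Adam23 and Prss23 between 1.35 and 2.64 (the first 3 of these turn sign with Sertoli centring).

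Across arrays the median signal of the 28 fallen members lay between 2.41 and 2.75 in control arrays and between -2.33 and -2.17 in irradiated arrays. At or above the array median were 27 or 28 of them in each control array. In irradiated arrays 2 to 5 were, with Adam1a and Prss56 in all 5, Acrbp in 4, and Adam3a and Prss27 in replicate 3 alone. Among controls, replicate 2 was lowest for 9 and replicate 8 highest for 9. The SD over control arrays ranged from 0.07 for Adam1a to 0.35 for Prss8 in fallen members and up to 1.03 in risers, where Adam10 was the widest.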

How the data were processed

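The authors deposited 1 log2 signal per probe set and sample. MAS5 made the signals, per the submitters' processing notes. Scaling and zero point are not given in the sources used here, and the log base was read from the slope of hybridisation spike-ins. Labelling started from 10 µg of total RNA, per the labels' protocols. Arrays have no read depth, and their number limits precision. No arrays were identical (0 pairs) and 0 columns went unused.

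Genes were named from the platform table, 1 symbol per probe set, and 54 of the 55 member genes were found in RefSeq's GRCr8 table with no symbol changed. Positions are printed for promoter windows only. The test was limma 3.58.1 under R 4.3.3, irradiated against control (2-sided, no covariate), over 18711 probe sets, Benjamini-Hochberg adjusted, threshold 0.05. The fit was tested on simulated data. The probe set with the highest mean stood for a gene. A probe set below the median of every array in a group has only a bound there, given as "at least N-fold"; it sets the brighter group's mean against the dim arrays at no less than their medians. "At most" and "at least" for a log2 change mean the same floor. Prss8 has no bound, because not all of its control arrays reached their medians. Summed marker signals are sums of back-transformed values.

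Named were all tested members. Sample values were given for the 2 with the highest control mean in each role list and for every member higher or not called, and the 4 largest measured changes were named from each pathway list. Values of Adam1a, Adam2, Tspan33, Tpst2, Mfge8, Timp2 and others beside these were added after they were seen. The members, lists and the alternative without control replicates 6 to 8 were chosen with earlier results of these data known. Alternatives changed the filter, scaling, pseudocount, probe set choice, variance prior and samples.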

Additional observations from a re-analysis of the deposited data

Results flagged for a closer look

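Among 84 groups of arrays (42 tested members in control and irradiated testes), 8 held an array set apart from the others by more than Dixon's limit, where chance gives about 1 in 20. In control testes, Adam10 was at -3.93 in replicate 6 (others -1.41 to -0.22), Adam19 at -1.96 in replicate 3 (others -0.79 to -0.10), Izumo4 at 2.03 in replicate 10 (others 2.34 to 2.66) and Zpbp at 2.69 in replicate 2 (others 3.09 to 3.43). In irradiated testes, Acr was at -5.47 in replicate 2 (others -3.61 to -3.02), Adam6 at -4.05 in replicate 3 (others -2.81 to -2.46), Adam22 at -4.33 in replicate 4 (others -2.12 to -1.31) and Zpbp2 at -2.66 in replicate 4 (others -1.65 to -1.45). All 8 were the lowest of their group, and the 4 in irradiated testes and those of Adam10 and Adam19 lay below the array median, where the size of a difference is uncertain. Control replicate 6 also had the largest difference between 3′ and 5′ actin probe sets (1.89); its part in the Adam10 value was not tested.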

How the results depend on the processing

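The counts of members lower and higher were 28 and 7 with the replicate block (replicates 1 to 5 of both groups), the same as for these arrays without the block, an alternative added after seeing the data. The labels do not say whether replicate numbers pair the samples. Deviations of same-numbered arrays correlated between -0.05 and 0.07, and 2 of 5 irradiated arrays correlated best with their own number. So few and weak correlations cannot settle whether samples were paired. All 28 fallen members remained lower under quantile normalization, centring on array medians and centring on Sertoli markers; 27 did with values floored at the array median. The median change of -3.03 moved to -1.18 with no filter, -4.28 with the array median required in 10 arrays, -4.66 with the 75th percentile, -5.22 with Sertoli centring, -2.08 with the floor (-2.06 on the probe sets of the report; the floor exchanged that of Zpbp2), -1.09 with a pseudocount of 1 and -3.25 with the mean of a gene's probe sets. With that pseudocount 5 members, not 18, were at least 8-fold lower. Higher members numbered 3 with either stricter filter, which tested 36 and 29 members, and 2 with Sertoli centring, which gave 39 lower members in place of 28 and left 4 regulators of ADAM10 and ADAM17 higher in place of 11 and 8.15% of all called genes higher in place of 55.7%. The median change of all genes, 0.20, became -1.98 with it, 0.05 with centring on array medians and -0.06 with quantile normalization. Sertoli centring shifts every gene equally, and the signs it had to turn were those of Adam9 (-1.46), Adam10 (-0.59), Adam15 (-0.49), Adam19 (-1.62), Adam33 (-0.40), Izumo1r (-1.94), Prss22 (-2.06), Prss36 (-2.08) and Spaca6 (-2.05). Leaving out each of the 15 arrays in turn gave 28 to 29 lower and 6 to 7 higher members, 17 to 18 at least 8-fold lower, median changes from -3.05 to -3.01, 15 to 16 other fertilization genes lower and 10 to 11 regulators higher. Signals below the array median limit the size of 23 falls, to a bound in all but Prss8.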
